A study of Mus musculus with 20 samples.

Results

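The genes followed here were Trp53, which encodes the transcription factor p53, and 5 genes of its feedback circuit, Mdm2, Mdm4, Ppm1d, Ccng1 and Trp53inp1. They were taken by gene symbol from the deposited table of sense-strand counts, and all 6 were found among its 21078 genes and passed the filter that left 13124 genes for testing. The thoracic aortas came from 20 adult male C57BL/6 wildtype mice aged 10 to 12 weeks, and were collected 4 h after a whole-body exposure. The proton group held 10 mice and the gamma group, exposed to rays of a caesium source, also held 10, with 1 mouse at each of 0, 5, 10, 25, 50, 75, 100, 125, 150 and 200 cGy in each group. The mouse at 0 cGy in each group was a sham, placed in the irradiator without exposure. Each dose was thus represented by 1 animal per radiation type, and responses to dose were read from the order and slope of 10 mice rather than from replicates. The whole vessel was sequenced, so the counts mix the cell types of the wall.

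p53 is held at a low level in unstressed cells because Mdm2 tags it for degradation, and DNA damage breaks this hold by modifying both proteins. The stabilised factor then activates genes that stop the cell cycle, repair DNA or start apoptosis, and among them are genes whose products act back on p53. Mdm2 is the ubiquitin ligase of p53, Mdm4 is its relative that binds and masks the activation domain, Ppm1d is the phosphatase Wip1 that removes damage-induced phosphates from p53 and its kinases, and Ccng1 encodes cyclin G1, which brings a phosphatase to Mdm2. Trp53inp1 differs from these in that its nuclear protein is known to promote p53 activity, and the RNA level of Trp53 itself says little about the protein, which is controlled mainly by its stability.

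Sequences resembling the p53 response element were looked for within 2000 bases on each side of the gene start in mm9, since binding near the start is one way in which p53 activates genes. The pattern searched was a pair of decamers with no bases between them. It is its own reverse complement, so that both strands are read at once. Windows with 1 mismatch to its consensus were found at 2 members, Mdm2 and Ccng1, and are shown 5′ to 3′ on the strand of the gene with the central 4 bases of each decamer in capitals.
Mdm2, chr10:117148726-117148745, 931 bases before the gene start: gggCAATtccgggCAAGtcc
Ccng1, chr11:40568964-40568983, 170 bases before the gene start: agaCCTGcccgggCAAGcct
Ccng1, chr11:40568438-40568457, 356 bases after the gene start: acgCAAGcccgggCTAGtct
The Mdm2 window and the upstream Ccng1 window overlapped no annotated gene, and the downstream Ccng1 window lay in an intron of Ccng1. A window with at most 1 mismatch was present at 1.17% of the genes tested. The best windows of Trp53, Mdm4, Ppm1d and Trp53inp1 had 3 mismatches, and 65.2% of the genes tested had one as good. These are matches of letters within the searched distance and do not show binding. Decamers set apart by other bases and sites farther away were not searched. A poorer match therefore does not show that a gene lacks an element.

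Before the members are described, the libraries need a word. Library totals lay between 6051657 and 6058006 counts because the authors resampled the libraries to a common depth, so that a given count is nearly the same share of the library in every mouse. Markers of smooth muscle, the main cell type of the aortic wall, summed to between 165116 and 332585 counts with none of the 6 markers at 0 in all mice. The lowest of these was the proton mouse at 75 cGy, whose library held 12504 counts of brown fat markers, 7674 of white fat markers and 10743 of striated muscle markers, against at most 4974, 2766 and 381 in the other mice. Endothelial markers ran from 2138 to 7595 counts, macrophage markers from 365 to 2404 and blood markers from 108 to 11392. The proton and gamma shams held 6908 and 6363 endothelial and 4949 and 6051 blood counts. The mice at 5 and 10 cGy held 2138 to 4122 and 108 to 789. The part of these differences in the member counts was not tested. The 4 mice at 150 and 200 cGy stood apart in another way. For each library, Pearson's r was taken between the exonic GC content of genes and their deviation from the mean of all mice, across 9817 genes, which are not independent replicates. This correlation lay between -0.40 and -0.35 in these 4 mice and between -0.0094 and 0.27 in the other 16, and the same correlation with exon length lay between 0.20 and 0.29 against -0.18 and 0.034. Doses above 125 cGy and this property of the libraries cannot be told apart, and results are therefore given with and without those 4 mice. Fibroblast markers were also lower in the 4 mice, at 22559 to 34334 counts against 37664 to 63898 in the other 16. In bulk tissue fewer cells of a type and less RNA per cell cannot be told apart. Neither can be told apart here from the GC and length property of these 4 libraries.

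Across all doses, 5 of the 6 genes rose with dose and Trp53 fell. The slope common to both radiation types was fitted in edgeR's quasi-likelihood model with separate intercepts, is given as log2 change per 100 cGy ± SE, and counted as changed at an adjusted p under 0.1 (Benjamini-Hochberg over all 13124 genes). By this test 11.9% of all genes rose and 5.77% fell. Trp53inp1 had the steepest slope, at 1.13 ± 0.10 (adjusted p = 1.06e-06), followed by Mdm4 at 1.04 ± 0.17 (adjusted p = 0.000932), Ccng1 at 0.89 ± 0.07 (adjusted p = 1.13e-07), Mdm2 at 0.41 ± 0.03 (adjusted p = 1.13e-07) and Ppm1d at 0.22 ± 0.06 (adjusted p = 0.0139). The median slope of the 6 genes was 0.65, beside 0.0055 for all genes tested. Only 3 of the 6 rose in the 16 mice at 0 to 125 cGy, where 0.442% of all genes did. These were Mdm2, Ccng1 and Trp53inp1. The paper had called these genes dose-responsive to both types in the same data, so the share is not independent of that result.

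**Figure D1:**
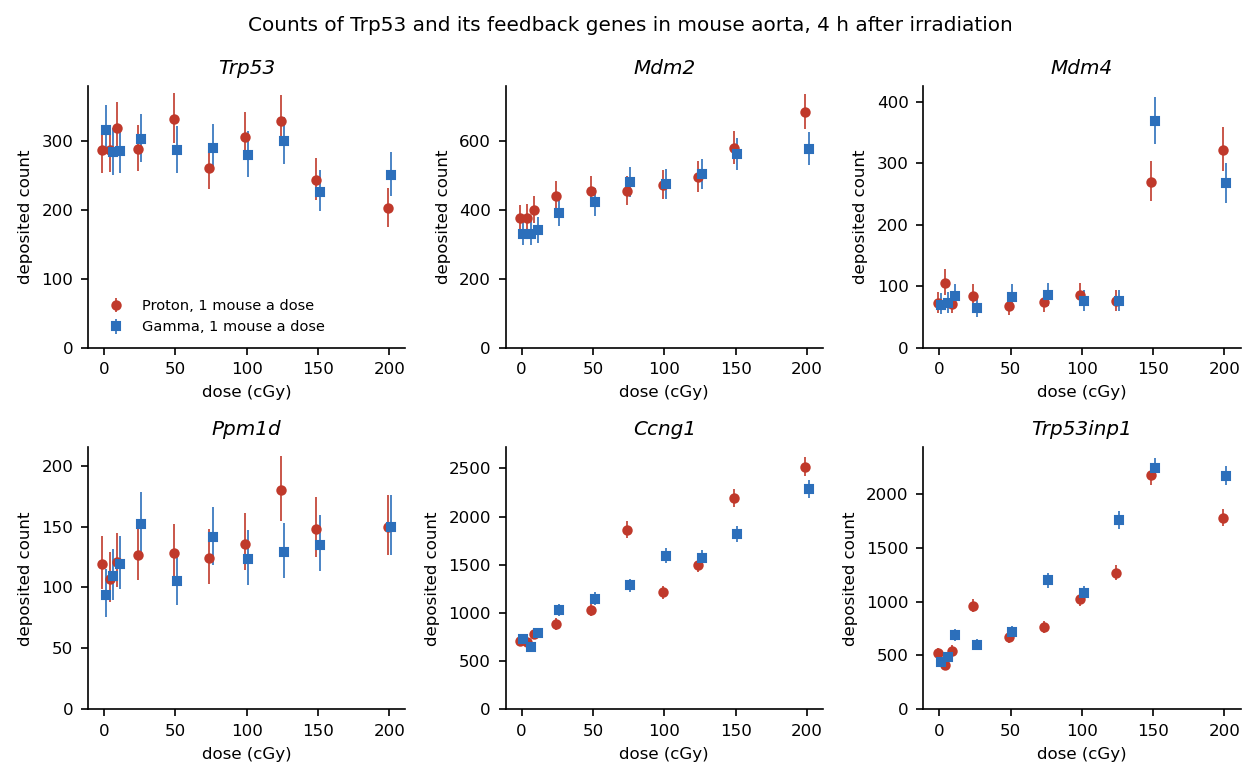
Deposited count of each gene (vertical axes, starting at 0) against dose in cGy for the 10 proton mice (circles) and 10 gamma mice (squares), 1 mouse at each dose, with points of the radiation types set slightly apart; bars are exact 95% Poisson intervals and cover counting error only. Mdm2, Ccng1 and Trp53inp1 climb through the dose range, Mdm4 stays between 65 and 105 up to 125 cGy and lies between 267 and 368 above it, and Trp53 lies lowest in the 4 mice at 150 and 200 cGy.

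Trp53 (ENSMUSG00000059552, chromosome 11, 69393861 to 69405375, plus strand) gave 286, 287, 319, 288, 332, 261, 305, 329, 243 and 202 counts in the proton mice in order of dose. In the gamma mice it gave 315, 283, 285, 303, 286, 289, 279, 299, 226 and 250 counts. The counts up to 125 cGy stayed within 261 to 332 with no order by dose, and the 4 mice at 150 and 200 cGy lay below all of the other 16, as they did for 2.47% of the genes tested. At 200 cGy the count was 0.706 times that of the sham for protons (95% interval 0.587 to 0.849, counting error only) and 0.794 times for gamma rays (0.670 to 0.940). The common slope was -0.17 ± 0.05 (adjusted p = 0.0312), and neither radiation type passed by itself, with -0.18 ± 0.07 for protons (adjusted p = 0.271) and -0.15 ± 0.07 for gamma rays (adjusted p = 0.260). Leaving out the proton mouse at 125 cGy brought the proton slope to -0.23 (adjusted p = 0.0738). Without the mice at 150 and 200 cGy the common slope was -0.0060 ± 0.06 (adjusted p = 0.987), with a 95% interval of -0.13 to 0.12. The call was also lost without the proton mouse at 200 cGy (-0.12, adjusted p = 0.168) and once GC content and length were corrected for (-0.13, adjusted p = 0.128). Trp53 transcripts have a GC content of 52.8%, against a median of 49.9% over the genes tested. The members that rose all lay below that median. Their GC contents were 49.2% for Ppm1d, 45.1% for Mdm2, 43.0% for Mdm4, 40.8% for Ccng1 and 38.6% for Trp53inp1. With GC content and length corrected for, 5 of the 6 members still rose by the common slope, where 4.51% of all genes rose.

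Mdm2 (ENSMUSG00000020184, chromosome 10, 117125944 to 117147814, minus strand) showed the most regular response. In the proton mice its counts were 376, 377, 400, 442, 455, 455, 473, 497, 580 and 686 in order of dose, without a single step down. In the gamma mice they were 332, 332, 341, 393, 423, 481, 475, 504, 563 and 579, with 1 step down. An exact two-sided permutation test of the Spearman correlation with dose, enumerating every order of the 10 doses, gave an adjusted p of 0.0145 for protons and 0.0193 for gamma rays. Between sham and 200 cGy the count changed 1.82-fold with protons (1.61 to 2.07) and 1.74-fold with gamma rays (1.52 to 2.0). Of the 18 irradiated mice, 16 had more Mdm2 than both shams. The slope was 0.40 ± 0.04 for protons (adjusted p = 0.000126) and 0.42 ± 0.05 for gamma rays (adjusted p = 0.000134). In the 16 mice at 0 to 125 cGy the common slope was nearly the same, 0.38 ± 0.05 (adjusted p = 0.00131), while for protons alone it was 0.28 ± 0.07 and missed the threshold (adjusted p = 0.327).

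Mdm4 (ENSMUSG00000054387, chromosome 1, 134886422 to 134921943, minus strand), the other inhibitor, behaved differently from Mdm2. Its counts were 72, 105, 71, 84, 68, 74, 85, 75, 270 and 322 in the proton mice and 70, 72, 84, 65, 83, 85, 75, 75, 368 and 267 in the gamma mice. The 16 mice up to 125 cGy held 77.7 ± 9.73 counts (SD across doses), and the 4 mice above held 307 ± 48.0, which is 3.95 times as much. The lowest of the 4 was more than 2 times the highest of the 16, a pattern shared by 30 genes or 0.229% of those tested, and no gene showed the reverse. The common slope of 1.04 therefore does not describe a gradual climb, since without the 4 mice it was -0.040 ± 0.12 with a 95% interval of -0.29 to 0.21 (adjusted p = 0.947). The slope for protons, 0.99 ± 0.25, passed at an adjusted p of 0.0688 and that for gamma rays, 1.09 ± 0.26, at 0.0277. The proton call was lost in 6 of 20 fits that each left out 1 mouse, with an adjusted p of up to 0.817 without the proton mouse at 200 cGy, and once GC content and length were corrected for, where the slope was 0.94 (adjusted p = 0.150). It was also lost with a filter of 1 count in any mouse, where the slope was 1.0 (adjusted p = 0.120), and with dose as its rank (adjusted p = 0.265). The gamma call was lost without the gamma mouse at 150 cGy (adjusted p = 0.128) or at 200 cGy (adjusted p = 0.199). The rank correlation with dose passed in neither type, at 0.55 for protons and 0.68 for gamma rays (exact permutation test, adjusted p = 0.775 and 0.273). These 4 mice are those whose libraries differed in the GC and length correlations given above, and the part of that difference in the Mdm4 counts was not tested beyond the correction, under which the common slope remained at 0.98 ± 0.17 (adjusted p = 0.00228). A curved dose response, tested as a quadratic term common to both types, had 5.70% of all genes past the threshold and none of the 6 genes. Its largest value among them was that of Mdm4, 0.79 ± 0.31 (adjusted p = 0.158), and in DESeq2 this value passed, at 0.82 (adjusted p = 0.0796).

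**Figure D2:**
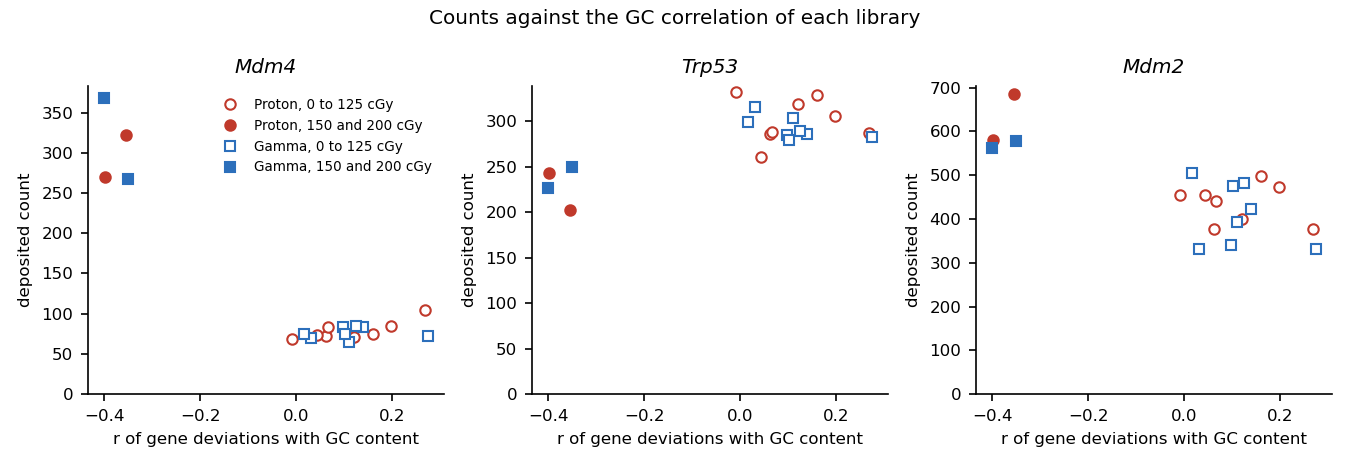
Deposited counts of Mdm4, Trp53 and Mdm2 (vertical axes, starting at 0) against the correlation, in the same library, of gene deviations with GC content, 1 point a mouse; filled symbols are the 4 mice at 150 and 200 cGy. These 4 lie between -0.40 and -0.35 on the horizontal axis and apart from the other 16, with Mdm4 and Mdm2 above and Trp53 below.

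Ppm1d (ENSMUSG00000020525, chromosome 11, 85124746 to 85160568, plus strand) changed least among the genes that rose. Its counts ran from 107 to 180 in the proton mice with a median of 127.5, and from 94 to 152 in the gamma mice with a median of 126. The sham mice had 119 and 94 counts and the mice at 200 cGy had 150 in both types, and 14 of the 18 irradiated mice had more than both shams. The highest proton value, 180, was at 125 cGy and the highest gamma value, 152, at 25 cGy, so that the groups below and above 125 cGy overlapped. The slope passed only when both types were fitted together (0.22 ± 0.06, adjusted p = 0.0139), with 0.26 ± 0.08 for protons (adjusted p = 0.144) and 0.18 ± 0.08 for gamma rays (adjusted p = 0.231). In the 16 mice at 0 to 125 cGy the common slope was 0.27 ± 0.10, similar in size but with an adjusted p of 0.401.

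Ccng1 (ENSMUSG00000020326, chromosome 11, 40562054 to 40568813, minus strand) gave 704, 701, 784, 883, 1031, 1863, 1213, 1502, 2191 and 2516 counts in the proton mice in order of dose. The gamma mice gave 727, 640, 789, 1025, 1147, 1284, 1595, 1572, 1818 and 2286. Every irradiated mouse from 10 cGy upward exceeded both shams, and only the mice at 5 cGy did not. The 200 cGy mice held 3.57 times the sham count with protons (3.29 to 3.89) and 3.14 times with gamma rays (2.89 to 3.42). Slopes were 0.95 ± 0.10 for protons (adjusted p = 5.34e-05) and 0.84 ± 0.10 for gamma rays (adjusted p = 0.000218), and at 0 to 125 cGy both were 0.97, with adjusted p = 0.0738 and 0.0344. The count of 1863 in the proton mouse at 75 cGy lay above the proton values at 100 and 125 cGy, and this was the library with fat and striated muscle markers, whose part in the count was not tested. Without the pair of mice at 75 cGy the proton slope was 0.94 ± 0.07 (adjusted p = 2.16e-07). The rank correlation reached 0.95 for protons (exact permutation test, adjusted p = 0.109) and 0.98 for gamma rays (adjusted p = 0.0196).

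Trp53inp1 (ENSMUSG00000028211, chromosome 4, 11083578 to 11101526, plus strand) had 526, 412, 545, 962, 667, 760, 1024, 1267, 2177 and 1783 counts in the proton mice. The gamma mice had 439, 489, 689, 599, 720, 1198, 1078, 1759, 2243 and 2175. The counts followed dose less regularly than those of Mdm2, with 3 steps down in each type, and the highest count was at 150 cGy in both. The 4 mice at 150 and 200 cGy were above all others, though only just above the gamma mouse at 125 cGy (1783 against 1759). Mdm2, Mdm4 and Trp53inp1 shared this lack of overlap with 6.80% of the genes tested. The mice at 200 cGy had 3.39 times (3.07 to 3.74) the sham count with protons and 4.95 times (4.47 to 5.50) with gamma rays. Slopes were 1.05 ± 0.14 for protons (adjusted p = 0.00103) and 1.22 ± 0.14 for gamma rays (adjusted p = 0.000218), and for 0 to 125 cGy the common slope was 1.15 ± 0.15 (adjusted p = 0.00108). At those doses the gamma slope passed (1.35 ± 0.21, adjusted p = 0.0149) and the proton slope did not (0.94 ± 0.21, adjusted p = 0.288), a difference between the types that did not itself pass (-0.41 ± 0.30, adjusted p = 1.0). By the exact permutation test, Trp53inp1 followed the order of dose in the gamma mice (rank correlation 0.96, adjusted p = 0.0272) and missed the threshold in the proton mice (0.94, adjusted p = 0.128).

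Counted over the 6 genes, 4 rose with proton dose and 4 with gamma dose in the edgeR fits, the same genes in each (Mdm2, Mdm4, Ccng1 and Trp53inp1), where 1.60% and 5.44% of all genes rose. At 0 to 125 cGy only Ccng1 rose with proton dose, and Mdm2, Ccng1 and Trp53inp1 rose with gamma dose, against backgrounds of 0.0991% and 0.221%. The rank test placed 1 of the 6, Mdm2, past the threshold in the proton mice and 3, Mdm2, Ccng1 and Trp53inp1, in the gamma mice, against 0.0838% and 1.17% of all genes. This contrast depended on the form of the test, since a one-sided test for increase also placed Ccng1 (adjusted p = 0.0545) and Trp53inp1 (adjusted p = 0.0642) past the threshold in the proton mice, and TMM-scaled counts placed Ccng1 there (adjusted p = 0.0644). Whether a gene passes in one type and misses in the other does not show that the types differ, and that comparison is given next.

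**Figure D3:**
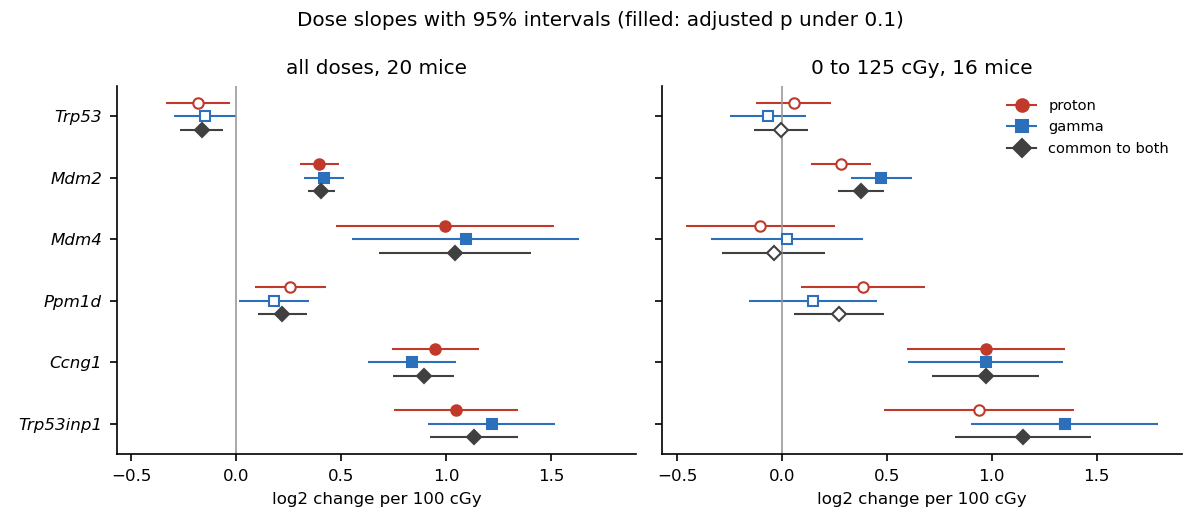
Slopes as log2 change per 100 cGy (horizontal axis) with 95% intervals for protons (circles), gamma rays (squares) and both together (diamonds), from all 20 mice on the left and from the 16 mice at 0 to 125 cGy on the right; filled symbols passed at an adjusted p under 0.1. The intervals of protons and gamma rays overlap for every gene, and the common slopes of Mdm4 and Trp53 move to -0.040 and -0.0060 on the right while those of Mdm2, Ccng1 and Trp53inp1 stay at 0.38, 0.97 and 1.15.

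Protons and gamma rays were compared by the difference of their slopes and by the level at matched doses with dose as a block. Neither comparison placed a gene past the threshold in edgeR, among the 6 or among all 13124 (0%), although 254 and 1032 genes had an unadjusted p under 0.05, and DESeq2 placed 0 and 70. Slope differences, protons minus gamma rays, were -0.02 for Mdm2 (95% interval -0.16 to 0.11), 0.11 for Ccng1 (-0.19 to 0.41) and -0.17 for Trp53inp1 (-0.61 to 0.27). They were 0.08 for Ppm1d (-0.16 to 0.32), -0.03 for Trp53 (-0.24 to 0.18) and -0.10 for Mdm4 (-0.87 to 0.67), with the widest interval for Mdm4. At matched doses the smallest unadjusted p was that of Mdm2, 0.0518 (adjusted p = 0.641), with 0.09 log2 units more in the proton mice (-0.00082 to 0.18). Mdm2 was higher in the proton mouse at 7 of 10 doses, the shams included. Trp53inp1 was higher in the gamma mouse at 8 of 10 doses, with a difference of -0.15 (-0.39 to 0.10).

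Low doses were tested in the 10 mice at 0 to 50 cGy. Ccng1 rose there by 1.36 ± 0.18 per 100 cGy (adjusted p = 0.0671), as 1 of only 2 genes (0.0152%) to pass, the other being Aen, a p53-induced nuclease gene, at 1.8 ± 0.25. The call for Ccng1 was lost in 8 of the 10 fits that left out 1 mouse, with slopes of 1.27 to 1.59 and an adjusted p of up to 0.949. Mdm2 had a slope of 0.67 ± 0.14 (unadjusted p = 0.000459, adjusted p = 0.548). For Trp53inp1 it was 1.22 ± 0.55 and for Ppm1d 0.31 ± 0.32, both with an adjusted p of 0.999, and Mdm4 and Trp53 had intervals from -1.05 to 0.79 and from -0.25 to 0.47.

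The genes were also set against Trp53 within the same aorta, as the ratio of counts, which is unaffected by library scaling. Trp53 itself averaged 230 counts in the 4 mice at 150 and 200 cGy and 297 in the other 16. A gene of unchanged count would thus also gain in this ratio. Ratios were not tested with GC content and length corrected for. They were also not tested for genes outside the members, so no share of all genes stands beside them. The ratio of Mdm2 to Trp53 was 1.31 in the proton sham and 3.40 at 200 cGy, and 1.05 and 2.32 with gamma rays. Ccng1 went from 2.46 to 12.5 with protons and from 2.31 to 9.14 with gamma rays, and Trp53inp1 from 1.84 to 8.83 and from 1.39 to 8.70. The ratio of Mdm4 stayed between 0.205 and 0.366 in the 16 mice up to 125 cGy and lay between 1.07 and 1.63 in the 4 above. Slopes of the log2 ratio on dose passed in all 10 tests over 5 genes and both types (exact two-sided permutation test, adjusted p between 2.2e-05 and 0.0157 over the 10), although that of Mdm4 with protons was lost without the proton mouse at 200 cGy (adjusted p = 0.139). Ppm1d passed as a ratio in both types, although its own slope passed in neither type alone. The ratios were adjusted over 10 tests and the slopes over all genes tested, so these calls are at unlike thresholds. Before adjustment, its own edgeR slope had p = 0.0045 for protons and 0.0376 for gamma rays. Its ratio had p = 0.00016 and 0.0114 (exact permutation test). The contrast in calls therefore does not show a clearer response of Ppm1d itself. The gamma ratio of Ccng1 rose by 1.0 per 100 cGy and the proton ratio by 1.13. At 0 to 125 cGy the number that passed was 6, without Mdm4 in either type (-0.13 and 0.10, adjusted p = 0.569 for each), Mdm2 with protons (0.23, adjusted p just over 0.1) and Ppm1d with gamma rays (0.23, adjusted p = 0.336).

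**Figure D4:**
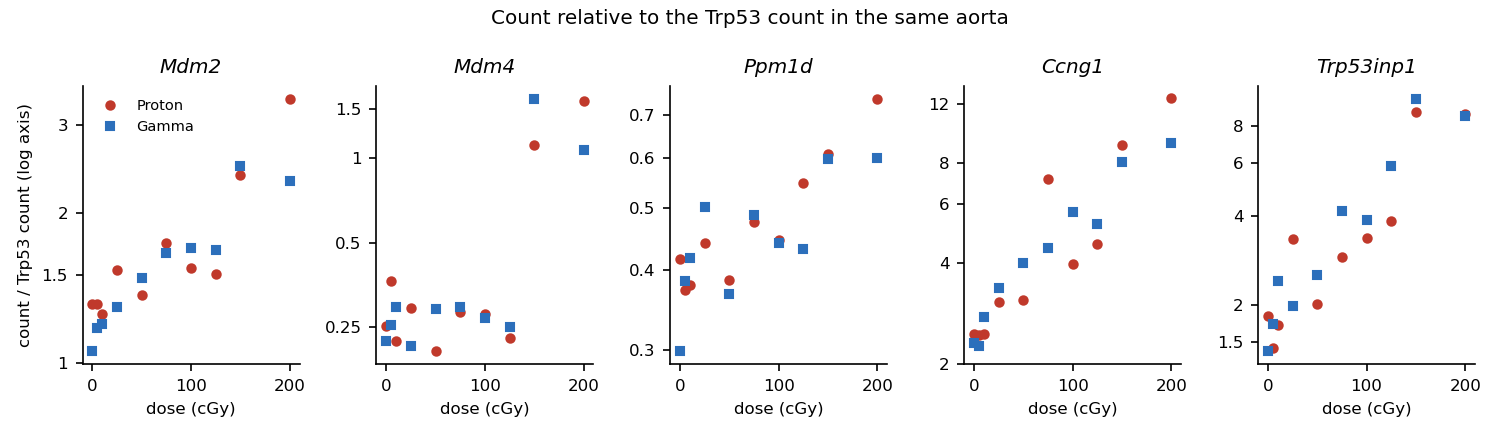
Count of each feedback gene divided by the Trp53 count of the same mouse (vertical axes, log scale, a different range in each panel) against dose in cGy for proton mice (circles) and gamma mice (squares), 1 mouse a point. The ratios of Mdm2, Ccng1 and Trp53inp1 climb with dose in both types, and that of Mdm4 lies between 0.205 and 0.366 up to 125 cGy and between 1.07 and 1.63 at 150 and 200 cGy.

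Levels of different genes can be compared only per length. Per kilobase of exon, Ccng1 was the most abundant, with a median of 336 counts over the 20 mice (182 to 716). Trp53inp1 followed at 133 (63.6 to 346), Mdm2 at 89.7 (65.5 to 135) and Trp53 at 70.8 (49.9 to 82.1), while Ppm1d at 40.2 (29.6 to 56.7) and Mdm4 at 22.5 (18.5 to 105) were lowest. Ranges of neighbours in this order overlapped throughout. In the proton sham Mdm2, at 74.2 counts per kilobase, was close to Trp53, at 70.7, and in the gamma sham it lay below, at 65.5 against 77.9. Annotated pseudogenes exist for Trp53 and Mdm4, and reads common to a gene and its pseudogene were not examined.

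Profiles over the 20 mice were compared by Pearson's r of log2 TMM-scaled counts among the 9816 genes whose mean count reached 50, as a description, since all points share the doses and the libraries. Mdm2 was most like Rnf169 (0.95), Aen (0.94), Slc19a2 (0.93) and the cell cycle inhibitor gene Cdkn1a (0.92), and Ccng1 was most like Slc19a2 (0.96) and Aen (0.96). Trp53inp1 was most like Fbxw7 (0.94) and Igf2r (0.93), with Aen and Cdkn1a also among its first 5. Mdm4 was most like Slk and Btbd7 (0.97 each), and Btbd7 is one of the 30 genes with the same jump above 125 cGy. Trp53 was most like Arhgdia (0.90) and Wasf2 (0.88), and Ppm1d reached at most 0.78, with Vopp1. Among the members, Mdm2 and Ccng1 had an r of 0.92, Mdm2 and Trp53inp1 0.91, and Mdm4 and Trp53 -0.85.

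Other parts of the p53 circuit were followed as counts over listed genes. Of 15 further feedback genes and paralogs, 12 could be tested, and Trp63, Trp73 and Cdkn2a were too low, at mean counts of 3.8, 0.25 and 0.2. By the common slope 3 of the 12 rose and 2 fell, where 11.9% of all genes rose and 5.77% fell. Rb1 (0.21 ± 0.06) and Ccng2 (0.23 ± 0.09) were among those that rose, and Akt1 (-0.14 ± 0.04) and Trp53inp2 (-0.14 ± 0.05) fell. None of these 5 calls held once GC content and length were corrected for, where the median slope of the 12 moved from 0.05 to -0.02. The slopes of these paralogs lay below those of their relatives, with Ccng2 at 0.23 beside 0.89 for Ccng1 and Trp53inp2 at -0.14 beside 1.13 for Trp53inp1, although those differences were not tested. None of the 12 passed at 0 to 125 cGy, where 0.625% of all genes passed in either direction and 2 unadjusted values were smallest, Rchy1 (p = 0.0267) and Ccng2 (p = 0.0823). The paralogs of Ppm1d, namely Ppm1a, Ppm1b and Ppm1g, passed in neither fit.

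Among 26 genes for regulators of p53 or Mdm2 protein, 10 rose and none fell, with a median slope of 0.08, where 11.9% of all genes rose. With GC content and length corrected for, 5 of the 26 rose with a median of 0.05, where 4.51% of all genes did. The damage kinase gene Atm (0.63 ± 0.09, adjusted p = 0.000271) and Hipk2, a p53 kinase gene (0.90 ± 0.15, adjusted p = 0.000722), led them, followed by Hipk1 at 0.29 ± 0.05, Prkdc at 0.28 ± 0.06, the acetyltransferase gene Ep300 at 0.26 ± 0.06 and Trp53bp1 at 0.25 ± 0.05. At 0 to 125 cGy none of the 26 passed, where 0.442% of all genes rose and 0.183% fell, the smallest unadjusted p being that of Prkdc (0.00642, adjusted p = 0.276), and Atm had a slope of 0.19 ± 0.12. Chek2, the other main damage kinase gene upstream of p53, had -0.16 ± 0.11 (adjusted p = 0.453), and the genes for Mdm2-binding ribosomal proteins, Rpl5, Rpl11 and Rpl23, had slopes between 0.03 and 0.05 with no call.

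Of 33 p53 target genes that could be tested, 21 rose and none fell, with a median slope of 0.42, where 11.9% of all genes rose. The leading ones were Aen at 0.98 ± 0.06 (adjusted p = 6.59e-09), the apoptosis genes Apaf1 at 0.54 ± 0.06 and Bax at 0.61 ± 0.06, and the death receptor gene Eda2r at 1.65 ± 0.17. Cdkn1a rose by 1.49 ± 0.16 (adjusted p = 1.46e-05). At 0 to 125 cGy 13 of the 33 still rose, where 0.442% of all genes did, with slopes of 1.97 ± 0.23 for Cdkn1a and 2.02 ± 0.32 for Eda2r. Mdm2, with 0.38 at those doses, was thus shallower on the log2 scale than these targets, and Ccng1 and Trp53inp1, with 0.97 and 1.15, were near Aen with 1.14 and Ephx1 with 1.02, although differences between genes were not tested. Fas, Ddb2, Xpc, Sesn1 and Perp, listed as targets too, had common slopes between 0.01 and 0.09 with no call. The target list was drawn up with earlier results of these data known. It includes Aen, Cdkn1a, Bax, Eda2r, Ephx1, Gtse1, Ddit4l and Cd80, which the paper called dose-responsive to both types in the same data. The shares of 21 and 13 of 33 are therefore not independent of that result.

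**Figure D5:**
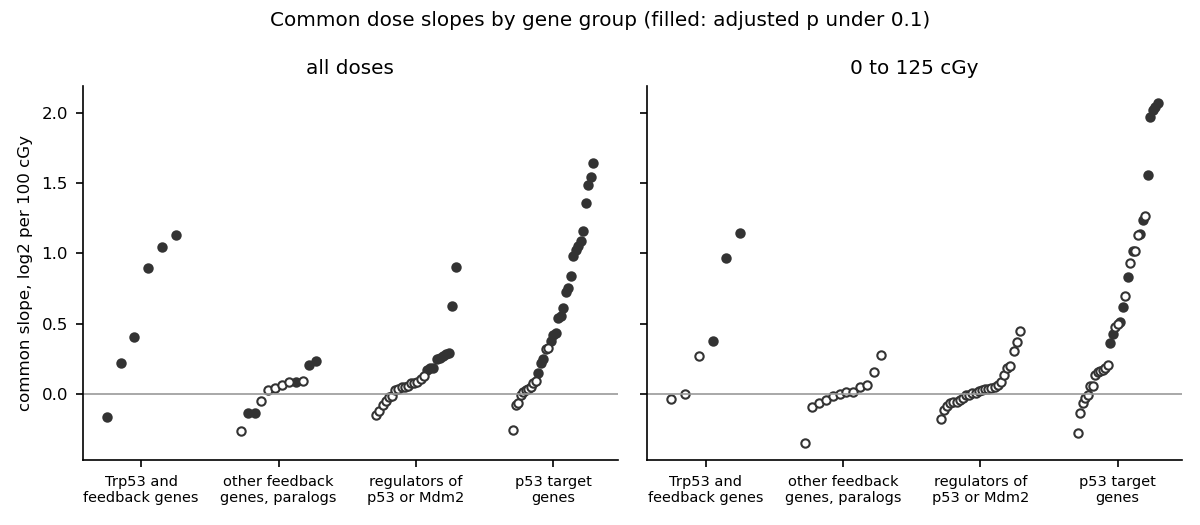
Common slopes as log2 change per 100 cGy (vertical axis) for Trp53 and its feedback genes, other feedback genes and paralogs, regulators of p53 or Mdm2 protein and p53 target genes, 1 point a gene, from all doses on the left and from 0 to 125 cGy on the right; filled points passed at an adjusted p under 0.1. The filled points, rises and falls together, number 6 of 6, 5 of 12, 10 of 26 and 21 of 33 on the left, and 3, 0, 0 and 13 on the right. Of all genes tested, 17.7% passed in either direction on the left and 0.625% on the right.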

How the data were processed

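RNA of 20 mouse aortas was measured by stranded, polyA-selected sequencing with paired reads of 100 bases. Per the methods and the submitters' processing notes, base calls were made with CASAVA 1.8.1, and the authors aligned the reads to mm9 with STAR 2.5.2a, resampled the libraries with PORT and deposited whole-number counts per gene on the sense strand. Every gene identifier was found in GENCODE M1, from which coordinates, exon lengths and GC contents were taken. The 13124 genes averaging 5 counts or more were tested in edgeR 4.0.16 (TMM, robust quasi-likelihood, slope and intercept per radiation type). Rank trends and ratios to Trp53 were tested exactly over all orders of the doses with Python 3.11.15 and scipy 1.17.1, with 1 added to each count in the ratios. Where p53 elements were searched, matches were counted over all genes tested. Adjusted p-values are by Benjamini-Hochberg over all genes tested, or over the 10 ratio tests. The tests were checked on simulated data.

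The members and the gene lists were chosen with earlier results of these data known. The text names all 6 members, the genes most alike (up to 5 each), and of the lists the paralogs and genes that passed the common slope, up to 6 each by smallest p among regulators and targets. Of the further feedback genes that rose, only Rb1 and Ccng2 are named. Chek2, Rchy1, the ribosomal protein genes and the targets without a call were named after their values were seen, and listed genes not named are given by counts only. Gtse1, Ddit4l and Cd80 are named only because the paper had called them. Grouping came from the radiation label. The paper used 1 mouse per dose and type, so p-values of slopes measure the spread of mice around a dose line. Those of rank trends and ratios come from reordering the doses. Those of the matched comparison measure the spread of differences between mice of the same dose. Intervals on counts cover counting error only. Alternatives were DESeq2 1.42.0, other scalings and filters, a correction for GC content and length, other dose scales and leaving out mice. Restricting the rank trends, ratios, curvature and matched comparison to 0 to 125 cGy, and the matched comparison to 9 pairs without 75 cGy, was chosen after the data were seen. Only the mm9 genome was searched for elements, and protein sequences were not used here.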

Additional observations from a re-analysis of the deposited data

Results flagged for a closer look

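Within each radiation type, the 10 mice were screened for 1 mouse set far apart from the nearest other, both in the log2 scaled counts of the 6 genes and in the deviations of these from a straight line on dose. Of 24 such groups, 2 had an outlying mouse at the 95% level, where chance gives about 1 in 20. Ccng1 lay 0.59 log2 units above its line in the proton mouse at 75 cGy, the library with the high fat and striated muscle marker sums, whose part in the value was not tested. Ppm1d lay 0.28 log2 units above its line in the proton mouse at 125 cGy.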

How the results depend on the processing

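Calls for Mdm2, Ccng1 and Trp53inp1 by the common, proton and gamma slopes held under the alternatives run and without any 1 mouse, except the proton slopes of Mdm2 and Trp53inp1 at 0 to 125 cGy and that of Trp53inp1 with dose as log2(dose + 1) (adjusted p = 0.168). With that dose scale the common slopes of Mdm4 (adjusted p = 0.197) and Trp53 (adjusted p = 0.407) were not called either, and by rank correlation the ratio of Mdm4 to Trp53 passed in neither type. All tests rest on 1 mouse per dose, at nearly equal library totals. Counts of genes called over the whole table moved by more than 1.5 times as follows, and the cause was not tested unless fewer mice entered.

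For the proton slope, 231 genes were called, against 139 with a filter of 1 count in any mouse, 84 with GC content and length corrected, 14 at 0 to 125 cGy, 376 without the pair at 75 cGy, 41 with dose as its rank, 22 with log2(dose + 1) and 29 to 637 when 1 mouse was left out. For the gamma slope 1004 were called, against 618, 319, 34, 480 and 45 under the filter, the correction, 0 to 125 cGy, the rank and log2(dose + 1), and 77 to 1583 without 1 mouse. For the common slope 2324 were called, against 969 with the correction, 82 at 0 to 125 cGy, 101 with log2(dose + 1) and 1248 to 2908 without 1 mouse. Curvature called 748, against 488 with the filter, 156 with the correction, 78 without the pair at 75 cGy and 0 at 0 to 125 cGy. The matched comparison called 0, against 70 in DESeq2, 3 with the filter, 2 with no replicate block and dose as a number, 20 without the pair at 75 cGy and 0 to 20 without 1 pair. The slope difference also called 0 with dose as a replicate block, and this changed no call of the 6 genes. The mice are paired by dose only, as each is another animal. The slope at 0 to 50 cGy called 2, against 11 in DESeq2 and 0 to 2 without 1 mouse. The proton trend called 11, against 26 one-sided, 7 at a mean count of at least 50 and 0 by number of steps or at 0 to 125 cGy. The gamma trend called 236, against 1046 by the slope of log2(count + 1) and 0 by number of steps or at 0 to 125 cGy. Of 10 ratio tests, 10 passed, against 6 at 0 to 125 cGy.

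Direction turned at 0 to 125 cGy for Mdm4 in the proton slope (-0.10), the common slope (-0.040), the curvature (-0.028) and the proton ratio (-0.13). For Trp53 it turned there in the proton slope (0.055), the slope difference (0.12) and the proton trend (0.40), and also in the slope difference with dose as its rank (0.0010) or as log2(dose + 1) (0.011), and in the proton and gamma trends by steps up minus steps down (1 each). None of these turned values passed. Without 1 mouse, the slope difference ran from -0.076 to 0.00032 for Mdm2, from -0.32 to 0.20 for Mdm4 and from -0.079 to 0.086 for Trp53, and the slope at 0 to 50 cGy from -0.60 to 0.28 for Mdm4 and from -0.047 to 0.22 for Trp53, all uncalled.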
